A study of Mus musculus with 4 samples.

Results

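The genes described here are the 3 that encode the E-cadherin receptors of lymphocytes: Klrg1, Itgae and Itgb7. They were taken by gene symbol, and all 3 were found among the 11883 genes of the authors' deposited table. RNA had been sequenced from lung T helper 2 (Th2) cells, sorted as live cells that carried CD4 and T1/ST2, the interleukin-33 receptor encoded by Il1rl1. All mice were of the C57BL/6 strain, had been given papain, an allergenic plant protease, in a chronic schedule, and carried Gata3(fl/fl), alleles of Gata3 that Cre recombinase can cut. The 2 control samples had the genotype Gata3(fl/fl), and the 2 samples called Klrg1Cre had the genotype Klrg1Cre Gata3(fl/fl), in which a Cre named for Klrg1 was added. The table has no column for a single sample. Its group means stand under WT, taken here as control, and ILC2 deficient, taken here as Klrg1Cre, a link that the labels do not spell out. Whether the samples of a genotype came from separate mice is not stated in the labels, so any p-value measures the spread between samples that may be technical. The 3 genes were chosen by their receptor function and on the deposited means of this same comparison, in which Klrg1 and Itgae were known to be low, so their values are a description and carry no test.

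E-cadherin, encoded by Cdh1, is the adhesion protein that joins epithelial cells, and lymphocytes recognise it through a pair of unrelated receptors. KLRG1 is a lectin-like inhibitory receptor that carries an inhibitory tyrosine motif, binds E-, N- and R-cadherin and marks differentiated effector T cells, a share of regulatory T cells and group 2 innate lymphoid cells (ILC2). CD103, the integrin chain alphaE encoded by Itgae, pairs only with the beta7 chain encoded by Itgb7, and the pair tethers lymphocytes to epithelium. Beta7 also pairs with alpha4, encoded by Itga4, in the gut-homing integrin that binds the vascular addressin MAdCAM-1. Transforming growth factor beta (TGF-beta) is the best known inducer of Itgae.

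The libraries held 26019065 and 14564426 reads in Klrg1Cre, and 33379572 and 31961572 in control; these sizes were derived from the smallest increments of low group means. Which library belongs to which numbered sample is unknown, so each is named by its size, larger or smaller, within its group. Levels are given as CPM, which scales reads to library size. Ribosomal precursor RNA (Rn45s) took up 67.1% of reads in Klrg1Cre against 51.4% in control. The share of all other listed genes was nearly equal, at 18.2% in Klrg1Cre and 17.8% in control. A further 14.7% in Klrg1Cre and 30.8% in control belonged to no listed gene. Gata3 had deposited means of 294 CPM (Klrg1Cre) and 221 CPM (control); a gene-level mean does not check the floxed alleles, because reads outside the cut segment can remain. Of the sort markers, Il1rl1 had deposited means of 59.1 and 68.0 CPM, and Cd4 had 159 and 177 CPM in the Klrg1Cre libraries and 159 and 141 CPM in the control libraries.

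Klrg1 transcripts were scarce in Klrg1Cre cells and plentiful in control cells. The larger Klrg1Cre library held 36 Klrg1 reads, or 1.38 CPM (95% Poisson interval 0.969 to 1.92), and the smaller held 102 reads, or 7.003 CPM (5.71 to 8.50). The control libraries held 1401 reads, or 42.0 CPM (39.8 to 44.2), and 1754 reads, or 54.9 CPM (52.3 to 57.5). The intervals cover counting error only. Both Klrg1Cre libraries lay below both control libraries with no overlap, as did those of 18.3% of the 5351 genes whose 4 libraries could be recovered. The deposited means were 4.19 CPM against 48.4 CPM, 11.5-fold lower in Klrg1Cre. The libraries recovered from the means gave 4.19 ± 3.97 CPM (SD, n = 2) and 48.4 ± 9.13 CPM (SD, n = 2). Across the pairs of a control and a Klrg1Cre library, Klrg1 was lower in Klrg1Cre by between 5.99-fold (counting interval 4.90 to 7.40) and 39.7-fold (28.5 to 56.8).

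The size of that difference depended on which Klrg1Cre library was read. The smaller held 5.06 times the Klrg1 level of the larger (counting interval 3.43 to 7.62), far more than the 1.31-fold gap between the control libraries (1.22 to 1.40). Without the larger Klrg1Cre library Klrg1 was 6.91-fold lower, a log2 ratio of -2.79, and without the smaller one the log2 ratio was -5.13. As a share of Cd4 reads, a quotient that does not depend on how much ribosomal RNA a library holds, there were 0.872 and 3.97 Klrg1 reads per 100 Cd4 reads in the Klrg1Cre libraries and 26.4 and 38.8 in the control libraries. In bulk RNA, fewer Klrg1-expressing cells and less Klrg1 RNA per cell cannot be told apart. The Cre carries the name of Klrg1, and no group had Klrg1Cre without floxed Gata3, so an effect of the Cre allele on Klrg1 itself, loss of Gata3 and a lack of ILC2 cannot be told apart.

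Itgae, the alphaE chain of CD103, was also lower in Klrg1Cre cells. Its deposited means were 42.8 CPM against 151 CPM in control, 3.53-fold lower, so that 28.3% of the control level was left. In CPM this was a difference of -108, against -44.2 for Klrg1. The Itgae means could not be split into whole reads per library, so its spread between libraries is unknown and no value without a library can be given. Set against the Cd4 mean of the same group, there were 25.5 CPM of Itgae per 100 CPM of Cd4 in Klrg1Cre and 101 in control. Haspin, which encodes a histone H3 kinase, lies inside Itgae on the opposite strand in the GENCODE M21 annotation, and whether the authors' counting used strand is not given in the sources used here. Haspin held 5.38 and 4.74 CPM in the Klrg1Cre libraries and 7.70 and 5.91 CPM in the control libraries, well under either Itgae mean. These values do not give the number of Haspin reads counted to Itgae, which was not tested.

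Itgb7, encoding the beta7 partner, was at a similar level in both genotypes. The Klrg1Cre libraries held 6732 and 3879 Itgb7 reads, or 259 CPM (253 to 265) and 266 CPM (258 to 275). The control libraries held 7951 and 6798 reads, or 238 CPM (233 to 243) and 213 CPM (208 to 218). Both Klrg1Cre libraries thus lay above both control libraries, by a small margin, and the deposited means were 263 and 225 CPM, a ratio of 1.16. The group means of the recovered libraries were 263 ± 5.37 CPM and 225 ± 18.04 CPM (SD, n = 2 each). Among the 5351 genes whose 4 libraries could be recovered, 19.3% had both Klrg1Cre libraries above both control libraries and 18.3% had both below. Per 100 Cd4 reads the margin nearly closed, with 163 and 151 Itgb7 reads in Klrg1Cre and 150.1 and 150.4 in control.

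**Figure D1:**
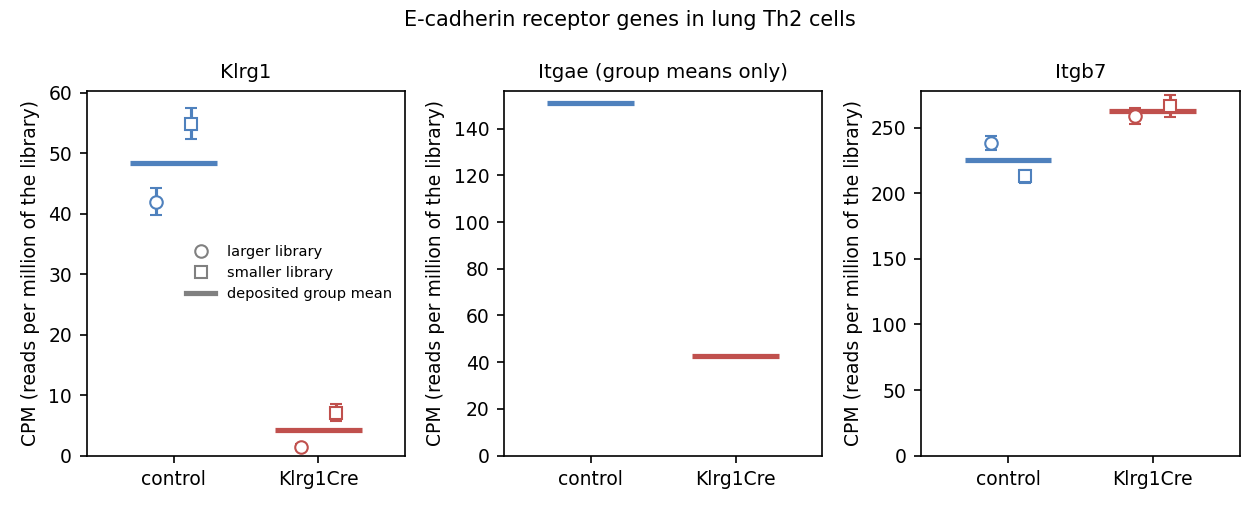
Levels of Klrg1, Itgae and Itgb7 in CPM (vertical axes, from 0) in control (blue) and Klrg1Cre (red). Bars are deposited group means, circles the larger and squares the smaller library of a group, error bars 95% Poisson intervals; Itgae has means only. Klrg1 lies at 1.38 and 7.003 CPM in Klrg1Cre against 42.0 and 54.9 CPM in control, while Itgb7 lies between 213 and 266 CPM in all 4 libraries.

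To compare genes with each other, the means were divided by the length of all annotated exons of the gene (GENCODE M21), which was 1414 bases for Klrg1, 3845 for Itgae and 2683 for Itgb7. In control cells the level per kilobase was highest for Itgb7, at 84.0 CPM per kilobase, followed by Itgae at 39.2 and Klrg1 at 34.2. The control libraries spanned 29.7 to 38.8 CPM per kilobase for Klrg1, so the gap between Itgae and Klrg1 there was no larger than the spread of Klrg1. In Klrg1Cre cells the order was the same, with 97.9 for Itgb7, 11.1 for Itgae and 2.97 for Klrg1, and the Klrg1 libraries at 0.979 and 4.95 lay below the Itgae mean.

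Beta7 has a choice of alpha partners, and their levels relative to it can be set side by side. On the per-length scale Itgae stood at 0.467 of Itgb7 in control and 0.114 of it in Klrg1Cre. Itga4, the alternative partner of beta7, stood at 0.0576 of Itgb7 in control and 0.0586 in Klrg1Cre, so the quotient of Itga4 to Itgae was 0.123 in control and 0.515 in Klrg1Cre. These quotients use exon lengths of one annotation, and the length of Itga4 (9767 bases) depends on how much untranslated sequence is annotated. The shift of a quotient between genotypes does not depend on the lengths.

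Among the 4229 genes that reached 10 CPM in either group mean, Klrg1 had the lowest ratio of Klrg1Cre to control and Itgae the third lowest ratio. Between them stood Tff1, encoding a trefoil factor, with deposited means of 3.20 and 17.3 CPM, and next after Itgae came Jcad, encoding a junctional protein, with 9.24 and 24.2 CPM. Of these 4229 genes, 0.0709% had a mean at least 3-fold lower and 0.473% one at least 2-fold lower. Klrg1 and Itgae are named here partly because of these ratios, so their place in the order supports nothing further. Itgb7 had a log2 ratio of 0.22, beside a median of 0.01 over all genes.

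**Figure D2:**
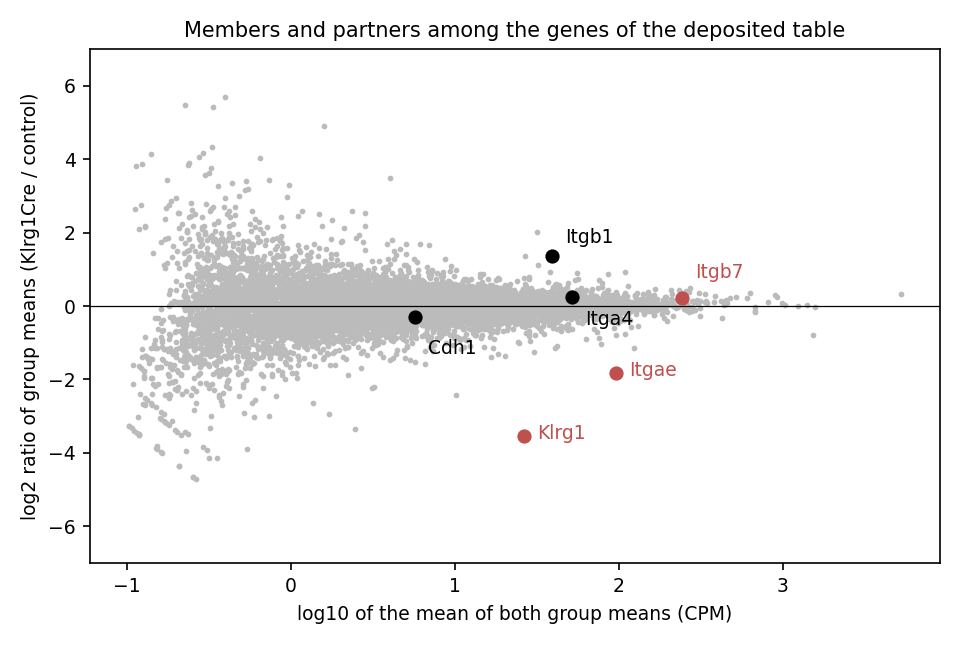
Log2 ratio of group means (Klrg1Cre over control, vertical axis) against the log10 of the mean level in CPM (horizontal axis), 1 grey point per gene, without genes listed at 0 in a group and without Rn45s. Klrg1 (log2 ratio -3.53) and Itgae (-1.82) lie below the cloud of genes with similar levels, and Itgb7 (0.22) and Itga4 lie inside it.

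The genes most like each receptor gene were sought among the others. Likeness was measured as the distance between log2(CPM + 1) profiles after each gene's own mean was subtracted, over the 4 libraries and 4242 genes averaging at least 1 CPM. The nearest to Klrg1 were Rln3, encoding relaxin-3, at a distance of 2.41, the lymphocyte GTPase gene Gimap7 at 2.45 and the copine gene Cpne7 at 2.49. Gimap7 held 7.46 and 14.1 CPM in the Klrg1Cre libraries and 21.4 and 26.0 CPM in the control libraries. Even these nearest genes were not close to Klrg1. Their log2 ratios were -1.59 (Rln3), -1.13 (Gimap7) and -1.52 (Cpne7), against -3.53 for Klrg1. For Itgb7, which itself varied little between libraries, the 3 nearest genes lay at smaller distances: Vhl at 0.0259, Dus1l at 0.0339 and Kmt2d at 0.0356. For Itgae, compared over the group means only, the nearest log2 ratios among genes of at least 10 CPM were those of Jcad (-1.39), of the costimulatory receptor gene Tnfrsf9 (-1.37) and of Penk, encoding proenkephalin (-1.32).

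The genes around the receptors were read from 11 lists, which together held 138 genes, 98 of them measured here. In the authors' deposited table, 0 of the 98 passed an adjusted p of 0.05 over all genes, where 0.0589% of all genes did (0.0252% higher and 0.0337% lower in Klrg1Cre). By the authors' unadjusted p, 12 with a higher and 7 with a lower mean in Klrg1Cre were below 0.05, together 19.4% of the 98, beside 7.09% of all genes (3.72% higher and 3.37% lower). Some of these genes were already known to differ when the lists were written, so the larger share is not independent evidence. The same all-gene shares, 3.72% higher and 3.37% lower, are the background for the unadjusted counts of each list below. With limma on the recovered libraries, 1 of the 38 list genes that could be tested, Itgb1, passed an adjusted p of 0.05. The median log2 ratio of the 98 was -0.02, against 0.01 for all genes.

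**Figure D3:**
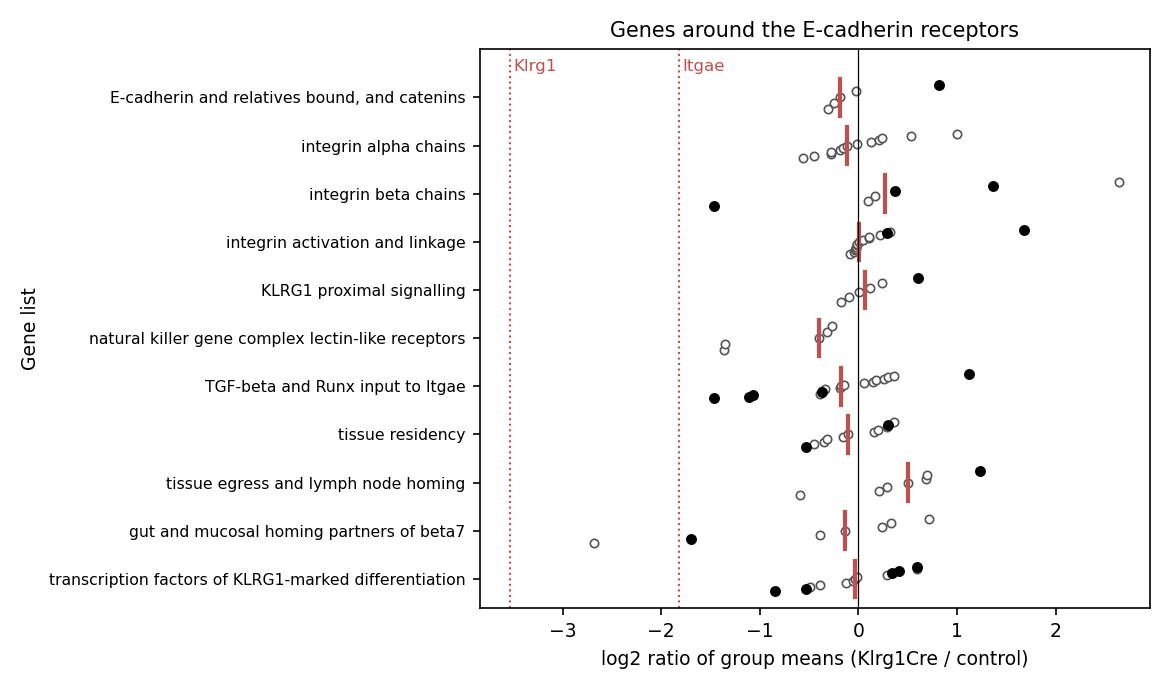
Log2 ratio of group means (horizontal axis) for each measured gene of the 11 lists (vertical axis). Filled points have an unadjusted p below 0.05 in the authors' table, open points do not, red bars are list medians, and dotted lines mark Klrg1 (-3.53) and Itgae (-1.82); Vcam1, with means under 1 CPM, is the 1 list gene to the left of the Itgae line.

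On the ligand side, E-cadherin itself was expressed at a low level. Cdh1 held 3.80 and 6.39 CPM in the Klrg1Cre libraries and 8.03 and 4.599 CPM in the control libraries. The groups overlapped, and the deposited means were 5.10 and 6.31 CPM. Cdh2 and Cdh4, which encode the other cadherins that KLRG1 binds, were not analysed here. Among the catenins, which link cadherins to actin, the beta-catenin gene Ctnnb1, the highest of the list by its summed means, had deposited means of 18.5 and 21.0 CPM and the alpha-catenin gene Ctnna1 19.1 and 19.4 CPM. Jup, encoding plakoglobin, held 11.2 and 10.4 CPM in Klrg1Cre, against 5.36 and 6.88 CPM. Its libraries did not overlap, as was so in this direction for 19.3% of recovered genes. Jup did not pass adjustment in the authors' deposited table (adjusted p = 0.405). Of the 5 measured genes of this list, 4 had a lower mean in Klrg1Cre, as did 49.4% of all genes, and the median log2 ratio was -0.18.

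Most of the other integrin alpha chains had similar means in both genotypes or very low ones. Of 13 measured, 0 passed adjustment in the authors' deposited table, and 0 had an unadjusted p below 0.05; the means of 8 were lower and of 5 higher, and the median log2 ratio was -0.11. Itgal, encoding the alphaL chain of LFA-1 and holding the most reads of them, had deposited means of 126 and 127 CPM. Itga4 had 56.0 and 47.3 CPM. Itga1, whose product is a collagen receptor of tissue-resident T cells, held 0.423 and 0.275 CPM in Klrg1Cre, against 0.359 and 0.594 CPM. The difference between the ratio of Itgae and those of these chains was not tested.

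Among 6 other beta chains, 0 passed adjustment in the authors' deposited table. At the authors' unadjusted p below 0.05, 2 had higher and 1 a lower mean, beside 3.72% and 3.37% of all genes. Itgb1, encoding beta1, the alternative partner of alpha4, held 51.2 and 62.4 CPM in the Klrg1Cre libraries and 27.0 and 17.1 CPM in the control libraries. Both Klrg1Cre libraries were above both control libraries, 2.58-fold in the deposited means. The adjusted p was 0.0701 in the authors' deposited table, over 11883 genes. It was 0.0447 with limma on the recovered libraries, over 4242 genes, which is not an independent test. Relative to Itga4 per length, Itgb1 was thus more plentiful in Klrg1Cre: the quotient of Itga4 to Itgb1 was 0.838 in control and 0.385 in Klrg1Cre. Itgb3 held 73.4 and 59.7 CPM in Klrg1Cre, against 56.9 and 45.7 CPM (adjusted p = 0.698 in the authors' deposited table). Its groups did not overlap either, and 19.3% of recovered genes had both Klrg1Cre libraries above both control libraries. Itgb8, encoding a chain that activates TGF-beta with alphaV, held 1.65 and 2.61 CPM against 5.60 and 6.16 CPM, with 81 reads in both Klrg1Cre libraries together (adjusted p = 0.265 in the authors' deposited table). Itgb2, the partner of alphaL and the chain with the most reads on this list, had deposited means of 203 and 181 CPM.

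**Figure D4:**
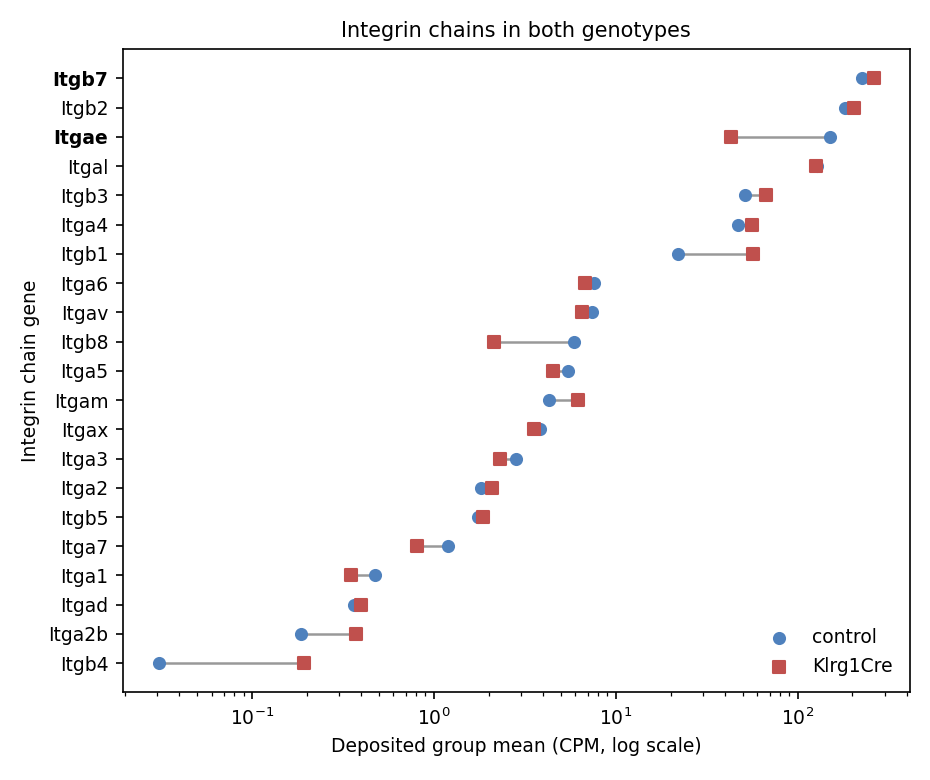
Deposited group means in CPM on a log scale (horizontal axis) for the 21 integrin chain genes measured, ordered by the control mean (vertical axis); blue circles are control, red squares Klrg1Cre. Itgae lies at 151 CPM in control and 42.8 CPM in Klrg1Cre, Itgb1 lies to the right in Klrg1Cre and Itgb8 to the left, and for Itgal the control and Klrg1Cre means nearly coincide.

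Genes that activate integrins from inside the cell came next. Of 15 measured genes in the authors' deposited table, 0 passed adjustment, 2 had higher and 0 lower means at an unadjusted p below 0.05, and the median log2 ratio was 0.01. Those 2 were Rasgrp2, encoding the exchange factor that activates Rap1, with 9.30 and 2.91 CPM (adjusted p = 0.102 in that table), and Fermt3, encoding kindlin-3, with 139 and 113 CPM (adjusted p = 0.668). Talin-1, encoded by Tln1, the highest of the list by its summed means, held 148 and 128 CPM in the Klrg1Cre libraries and 144 and 93.3 CPM in the control libraries, which overlapped.

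A list of 6 phosphatase and kinase genes placed around KLRG1 signalling was measured in full. Not all of its members are known to act downstream of KLRG1. Of these 6, 0 passed adjustment in the authors' deposited table, and 1 had a higher and 0 a lower mean at an unadjusted p below 0.05. That gene was Ptpn6, encoding the phosphatase SHP-1, with deposited means of 50.0 and 32.9 CPM (adjusted p = 0.374). Inpp5d and Ptpn11, encoding the phosphatases SHIP-1 and SHP-2 that bind the KLRG1 tail, had deposited means of 65.0 and 59.9 CPM and of 11.5 and 9.71 CPM. Lck, encoding the kinase of T cell receptor signalling, held the most reads, at 243 and 259 CPM.

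Of the lectin-like receptor genes of the natural killer gene complex, the family to which KLRG1 is related, 5 of 30 were measured here. All 5 had lower means, as did 49.4% of all genes, and those of Klrb1b and Klrb1f were under 1 CPM in both genotypes. The unadjusted p was below 0.05 for 0 of the 5, and 0 passed adjustment, in the authors' deposited table. Cd69, whose product holds T cells in tissue, had by far the most reads, with 23.0 and 26.8 CPM in the Klrg1Cre libraries and 26.4 and 35.9 CPM in the control libraries, which overlapped. Clec2d had deposited means of 6.29 and 8.28 CPM, and Klrb1f 0.180 and 0.461 CPM.

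The 17 TGF-beta and Runx genes listed around Itgae were all measured. They include Smad7, Ski and Skil, which inhibit the pathway and had lower means, so the list median gives no direction of input to Itgae. Adjustment left 0 of them in the authors' deposited table, and the median log2 ratio was -0.18. At the authors' unadjusted p below 0.05, 4 had lower and 1 a higher mean, beside 3.37% and 3.72% of all genes. Itgb8 and Lrrc32, among those 4, are also on the list of regulatory T cell markers given below. Tgfbr1, encoding the type I receptor that phosphorylates Smad proteins, had deposited means of 7.18 and 15.5 CPM (adjusted p = 0.194). Tgfbr2, the type II receptor gene, held the most reads of the list, with 89.3 and 78.8 CPM. Lrrc32, encoding GARP, which displays latent TGF-beta on regulatory T cells, held 3.46 and 6.25 CPM in Klrg1Cre against 8.54 and 11.9 CPM in control, without overlap (adjusted p = 0.448 in the authors' deposited table). A gap without overlap in that direction was found for 18.3% of recovered genes. Itgb8, given above, is a further member with a lower mean. The ligand gene Tgfb3 was the 1 with a higher mean, at 2.19 and 2.47 CPM against 0.929 and 1.22 CPM. Smad3, which transmits the signal, had deposited means of 15.8 and 15.1 CPM, and Runx3, encoding a factor that promotes Itgae transcription, 20.8 and 16.2 CPM.

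Residency genes other than Itgae showed no common direction. Of 11 measured in the authors' deposited table, 0 passed adjustment, 1 had a higher and 1 a lower mean at an unadjusted p below 0.05, with a median log2 ratio of -0.11, and of 0.03 over genes averaging at least 5 CPM. Prdm1, encoding Blimp-1, held 21.1 and 22.0 CPM in the Klrg1Cre libraries and 31.5 and 30.8 CPM in the control libraries (adjusted p = 0.412 in the authors' deposited table). Its groups did not overlap, as was so in this direction for 18.3% of recovered genes, and the libraries of each group lay within 1 CPM of each other. Bhlhe40 held 115 and 101 CPM against 89.4 and 86.1 CPM, and Cxcr6, encoding a chemokine receptor of lung-resident T cells and holding the most reads, held 217 and 152 CPM against 164 and 158 CPM.

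Genes of tissue exit mostly had higher means. Of 7 measured in the authors' deposited table, 6 had higher and 1 a lower mean, where 49.4% of all genes had a lower one. The median log2 ratio was 0.50, and 0.25 over genes averaging at least 5 CPM. Over the 4 whose libraries were recovered, the median difference of log2(CPM + 1) was 0.39, and 0.07 without the smaller Klrg1Cre library. Of the 7, 0 passed adjustment. At an unadjusted p below 0.05, 1 had a higher and 0 a lower mean, beside 3.72% and 3.37% of all genes. That gene was Klf2, encoding a factor that promotes exit, at 4.19 and 5.56 CPM in the Klrg1Cre libraries and 1.62 and 2.53 CPM in the control libraries (adjusted p = 0.428 in the authors' deposited table). S1pr1, the exit receptor gene, held 25.9 and 42.4 CPM against 24.3 and 23.8 CPM, so that most of its higher mean came from the smaller Klrg1Cre library. S1pr4 held the most reads, with 84.0 and 114 CPM against 82.2 and 80.5 CPM. Among genes of gut homing that work with beta7, 7 of 10 were measured. Of these, 0 passed adjustment in the authors' deposited table, and 1 had a lower and 0 a higher mean at an unadjusted p below 0.05: Ccr9, encoding the gut chemokine receptor, with 1.26 and 4.10 CPM (adjusted p = 0.284). Fn1, encoding the alpha4 ligand fibronectin, held the most reads of the list, at 63.5 and 69.9 CPM. The median of the list was -0.14, and 0.24 over genes averaging at least 5 CPM.

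Transcription factors of the differentiation that KLRG1 marks had higher means in some cases and lower means in others. Of 13 measured in the authors' deposited table, 0 passed adjustment, with a list median of -0.03. The unadjusted p was below 0.05 for 3 with a higher and 2 with a lower mean, beside 3.72% and 3.37% of all genes. The genes of lowest p were Prdm1, given above, Gata3, whose deposited means of 294 and 221 CPM gave an adjusted p of 0.551 in that table and were the highest of the list, Zeb2 and Id2. Zeb2, a factor of terminal effector cells, had deposited means of 26.3 and 17.4 CPM. Id2, needed by effector lymphocytes and innate lymphoid cells, held 178 and 160.2 CPM in Klrg1Cre, against 136 and 132 CPM. Bach2, a repressor of effector genes, had deposited means of 2.34 and 2.37 CPM.

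Klrg1 and Itgae are both expressed by regulatory T cells, whose markers mostly had lower means as well. All 14 markers of this list were measured, and the mean of 13 was below that of control. Of the 14, 0 passed adjustment in the authors' deposited table and 11 had a lower and 0 a higher mean at an unadjusted p below 0.05, beside 3.37% of all genes with lower means. Their summed deposited means were 491 and 772 CPM, 1.57-fold lower, and none of the defining genes was at 0. Foxp3, the lineage factor gene, had deposited means of 50.6 and 105 CPM, 2.07-fold lower, and Tnfrsf18, holding the most reads, 107 and 155 CPM. As quotients of group means, which carry no spread, Itgae over Foxp3 was 1.71-fold lower and Klrg1 over Foxp3 5.59-fold lower in Klrg1Cre, and Itgb7 had 519 CPM per 100 CPM of Foxp3 in Klrg1Cre and 216 in control.

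For Klrg1, marker levels can also be given by library. The 6 regulatory T cell markers whose libraries could be recovered, Foxp3 not among them, summed to 121 and 196 CPM in the Klrg1Cre libraries and to 201 and 309 CPM in the control libraries. In the same order, Klrg1 was at 1.38 and 7.003 CPM and at 42.0 and 54.9 CPM. Per 100 CPM of the summed markers there were 1.14 and 3.58 CPM of Klrg1 in Klrg1Cre and 20.9 and 17.8 CPM in control. Itgae and Foxp3 have no library values, and the part of these markers in the lower Klrg1 and Itgae means was not tested.

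**Figure D5:**
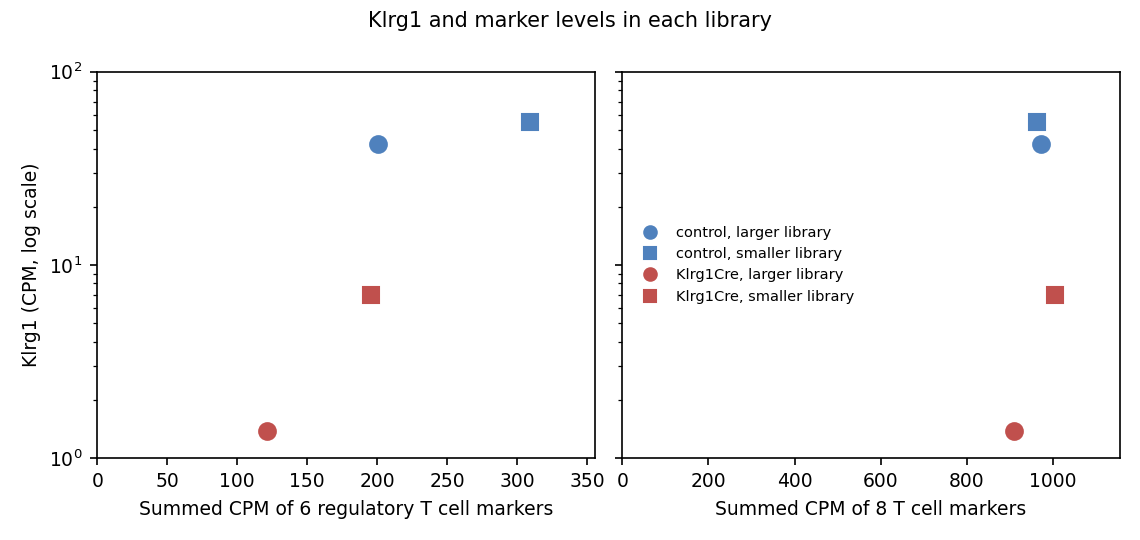
Klrg1 in CPM on a log scale (vertical axis) against the summed CPM of 6 regulatory T cell markers (left) or 8 T cell markers (right) in each library; blue is control, red Klrg1Cre, circles the larger and squares the smaller library. The sums on the left are 121 and 196 CPM (Klrg1Cre) and 201 and 309 CPM (control), and Klrg1 is at 1.38 and 7.003 CPM and at 42.0 and 54.9 CPM.

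Markers of T cells were level, with 8 measured genes summing to 908 and 1004 CPM in the Klrg1Cre libraries and 972 and 962 CPM in the control libraries. Of the ILC2 list, which shares several genes with Th2 cells, 15 of 16 genes were measured, and 0 passed adjustment in the authors' deposited table. The unadjusted p was below 0.05 for 9 of them, 5 higher and 4 lower, beside 3.72% of all genes higher and 3.37% lower. The 5 were Nmur1, Kit, Gata3, Il18r1 and Calca, and the 4 were Il7r, Icos, Arg1 and Il2ra. Their summed deposited means were 731 and 808 CPM, 1.10-fold lower, and Klrg1 was 10.5-fold lower relative to that sum. Gata3 held the most reads of that list. The ILC2 markers whose libraries were recovered, 6 in number, summed to 204 and 175 CPM in Klrg1Cre, against 291 and 299.8 CPM. Icos and Arg1 held the most reads of these 6. Icos was at 79.1 and 82.5 CPM in Klrg1Cre against 126 and 147 CPM, and Arg1 at 70.8 and 37.0 CPM against 106 and 90.6 CPM. None of the 5 with a higher mean at that threshold was among the 6, so their sum does not stand for the list. The part of ILC2 RNA in the lower Klrg1 and Itgae means was not tested.

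Markers of other cells that can carry CD103 or KLRG1 were measured in part. A gene not analysed here is not thereby shown to be low, since Trac and Trbc2, which encode constant chains of the T cell receptor, were also not analysed in these sorted T cells. Of 10 markers of CD103-bearing dendritic cells, 6 were measured; Xcr1, the defining chemokine receptor gene, held 3.46 and 2.13 CPM in the Klrg1Cre libraries and 2.49 and 2.75 CPM in the control libraries, and the gene with the most reads, Irf8, had deposited means of 16.9 and 22.6 CPM. The list summed to 38.3 and 39.9 CPM in the deposited means. Of the CD8 T cell markers only Cd8b1 was measured, at 3.07 and 2.93 CPM, and 3 of 9 natural killer cell markers summed to 16.2 and 14.4 CPM, nearly all from Tyrobp, which myeloid cells share. The mast cell and basophil list, with 2 of 10 measured, summed to 4.38 and 2.83 CPM, with the most reads in Hdc. The B cell list, with 4 of 5 measured, summed to 1.72 and 3.18 CPM; its most read gene was Cd79b, and Ms4a1 was listed at 0 in Klrg1Cre. Of 5 gamma-delta T cell markers 0 were measured. Epithelial markers, 6 of 9 measured and Cdh1 among them with the most reads, summed to 13.0 and 20.9 CPM in the Klrg1Cre libraries and 18.1 and 17.1 CPM in the control libraries. The macrophage list was abundant, with all 12 genes measured and sums of 1613 and 2378 CPM in the deposited means, mostly from Chil3 at 1124 and 1932 CPM, while Marco was listed at 0 in control.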

How the data were processed

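The aligner STAR, Partek software and mouse build mm9 are named, without versions, per the submitters' processing notes. The deposited table gives the authors' group means in CPM; the unit and an offset of 0.0001 CPM in each mean were read from the values. The deposited ratio of the group means, the fold change with its sign and the p-values are the authors' own, from a model not given in the sources used here; adjusting the deposited p-values over all 11883 genes by Benjamini-Hochberg gave the deposited adjusted values. The deposited signal of each gene, named total counts, was 2 times the summed group means and was not used further.

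A mean of 2 libraries was split into whole reads where exactly 1 pair of read numbers gave it to within 1e-09 reads; library totals came from the steps of low means. This succeeded for 5351 genes (45.0%) in both groups, Klrg1 and Itgb7 among them and Itgae not. Tested on simulated Klrg1Cre and control means of 11883 genes each, the split recovered 100% of those with whole reads, with 0 wrong in either group. The simulation used the same derived library totals, so it checks the splitting step and not the totals. Its reads were whole in both libraries or in neither, so genes fractional in a single library were not covered. Since most genes could not be split into whole reads, no count model was fitted. limma 3.58.1 in R 4.3.3, run with its trend option on log2(CPM + 1) values of the 4242 split genes averaging at least 1 CPM, served as an alternative to the authors' calls. It used the same libraries, and its p-values ranked those genes almost as the authors' did (Spearman correlation 0.998). Other values were computed with Python 3.11.15 and scipy 1.17.1; Poisson intervals are exact.

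The members and lists were chosen with earlier results of these data known. Genes named from a list are those past the authors' adjusted p of 0.05, else up to 4 of lowest unadjusted p below 0.05, and the 1 with the highest summed means (also for marker lists, with genes listed at 0), plus ligands and partners of the receptors; other genes (Ctnna1, Itga1, Inpp5d, Ptpn11, Clec2d, Klrb1f, Klrb1b, Smad3, Smad7, Ski, Skil, Runx3, S1pr1, Bach2, Haspin, Foxp3, Xcr1 and Tff1) were named for their role or level after their values were seen. All ILC2 markers with an unadjusted p below 0.05 were also named. No coordinates are printed, since the annotation used is of build GRCm38.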

Additional observations from a re-analysis of the deposited data

How the results depend on the processing

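Klrg1 and Itgae stayed lower in Klrg1Cre under each alternative tried, and Itgb7 stayed higher. The log2 ratio of Itgae was -1.82, and -1.71 with a pseudocount of 5 CPM. Rescaled to the listed genes other than Rn45s, the log2 ratio was -1.85 for Itgae, -3.56 for Klrg1 and 0.19 for Itgb7. Relative to Cd4, a scaling chosen after seeing the data, it was -1.98 for Itgae, -3.75 for Klrg1 and 0.063 for Itgb7, against 0.22 for Itgb7 in CPM. A pseudocount of 5 CPM gave -2.54 for Klrg1 in place of -3.53. Leaving out 1 library at a time, the log2 ratio ranged from -5.13 to -2.79 for Klrg1 and from 0.14 to 0.30 for Itgb7; this was not possible for Itgae. The authors' p-values gave 7 calls over all genes, 16 when adjusted only over genes averaging at least 5 CPM, where fewer genes were tested; limma also gave 7, over the recovered genes. Of the pathway genes, limma called 1, Itgb1, and the authors' adjusted p 0. List medians changed sign under 9 of 62 alternatives. No paired analysis was possible because the recovered libraries cannot be tied to the numbered samples. Klrg1 rests on 36 and 102 reads in Klrg1Cre, which limits its fold.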

Other observations

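Within each genotype, the library with more Klrg1 was also the one with more regulatory T cell transcripts, a reading chosen after seeing the data. All 6 regulatory T cell markers with recovered libraries (Ikzf2, Il2ra, Tnfrsf4, Lrrc32, Tigit and Itgb8) were higher in the smaller than in the larger library, in Klrg1Cre and in control alike, as was Klrg1. Over all 5351 recovered genes, 47.0% were higher in the smaller Klrg1Cre library and 49.9% in the smaller control library. Other lists leaned the same way in part: 7 of 8 T cell markers and 5 of 6 epithelial markers were higher in the smaller Klrg1Cre library, against 4 of 8 and 3 of 6 in control. Markers of CD103-bearing dendritic cells were higher there in 2 of 3 cases in Klrg1Cre and 3 of 3 in control, and ILC2 markers in 3 of 6 in each. Macrophage markers were higher there in 1 of 6 and 2 of 6 cases. Ikzf2, encoding the regulatory T cell factor Helios, held 10.8 and 22.2 CPM in the Klrg1Cre libraries and 26.5 and 39.2 CPM in the control libraries. With 2 libraries per genotype this is a description of 4 libraries, and its cause was not tested.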
